A study of Caenorhabditis elegans with 2 samples.

Results

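The fatty acid desaturase genes fat-1 to fat-7 of the nematode Caenorhabditis elegans were examined for binding of the zinc finger transcription factor PQM-1 in L3 larvae. The members are the 7 genes of that name among 19973 protein-coding genes. Each was taken with 5 kb on either side, and all peak summits in that window were read from the authors' lists. The windows held 19 of the 5560 peaks of the optimal list, which passed the authors' threshold on irreproducible discovery between replicates. In the relaxed lists, which also hold weaker peaks, the windows held 52 of 26022 peaks in replicate 1, 49 of 30000 in replicate 2 and 56 of 30000 in the pooled list of both.

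The study mapped PQM-1 by chromatin immunoprecipitation and sequencing, in 1 group of 2 biological replicates. The animals were of strain OP201, with the unc-119(tm4063) III allele and the integrated transgene wgIs201, which carries pqm-1 tagged with eGFP. Both replicates share these alleles and were whole L3 larvae with males and females pooled, of unknown age, per the labels. There was no second condition, and the control library that the labels name as possible was not analysed here. The signal follows the tagged transgene product, and in whole larvae strong binding in few cells and weak binding in many cannot be told apart. Peak lists carry no reads, so depth is unknown and no interval on a signal can be given. Signal is a score from the authors' peak calling with no stated scale. It reached 367 in replicate 1 and 102 in replicate 2, so signals were set side by side only within a list and replicates were compared by rank, with rank 1 the strongest.

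Desaturases put double bonds into fatty acyl chains, and in the worm they work in sequence. FAT-5, a palmitoyl-CoA desaturase, and FAT-6 and FAT-7, stearoyl-CoA desaturases, make monounsaturated fatty acids. FAT-2 turns oleic into linoleic acid, FAT-1 is the omega-3 desaturase, and FAT-3 and FAT-4 add further double bonds on the way to arachidonic and eicosapentaenoic acid. The intestine is the worm's main site of fat synthesis and storage. PQM-1 is known for binding the heptamer TGATAAG, also called the DAF-16-associated element, which contains the core of a GATA factor site.

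The sequences at the strongest optimal summit of each desaturase locus show what lay under the signal. Each run is 101 bases with the summit at its centre, except that of fat-7, which has 99 because bases of a neighbouring 5' UTR were left out. They come from the RefSeq WBcel235 genome, the same assembly as ce11, on the strand of the desaturase gene, 5' to 3'. Capitals mark TGATAA or TGATAAG, or the reverse complements TTATCA and CTTATCA. The fat-4 and fat-3 site is chrIV:9801590-9801690, the fat-1 and fat-2 site is chrIV:13318865-13318965 and the fat-5 site is chrV:17721886-17721986, all on the plus strand. The fat-7 site is chrV:7150715-7150813 and the fat-6 site is chrIV:11916993-11917093, both on the minus strand.
fat-4 and fat-3, in an intron of fat-4: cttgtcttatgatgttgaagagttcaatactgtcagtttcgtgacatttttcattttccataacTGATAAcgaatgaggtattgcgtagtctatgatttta
fat-1 and fat-2, past the end of fat-1: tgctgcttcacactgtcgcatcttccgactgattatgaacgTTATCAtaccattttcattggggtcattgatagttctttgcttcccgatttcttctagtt
fat-5, distal upstream site: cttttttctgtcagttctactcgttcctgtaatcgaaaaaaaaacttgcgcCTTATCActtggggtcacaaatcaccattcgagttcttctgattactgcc
fat-7, past the end of the gene: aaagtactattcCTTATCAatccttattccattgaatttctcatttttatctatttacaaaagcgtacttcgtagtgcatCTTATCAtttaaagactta
fat-6, upstream site: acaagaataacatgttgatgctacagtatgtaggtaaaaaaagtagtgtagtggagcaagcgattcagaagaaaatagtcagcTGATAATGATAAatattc
All 5 hold TGATAA on one of the strands, and those of fat-5 and fat-7 hold the full TGATAAG. Over all 19 desaturase peaks TGATAA was at 10 (52.6%), against 43.3% of all optimal peaks. The full TGATAAG was at 23.9% of all optimal peaks. The fat-7 site has 2 copies that both face against the gene, and the fat-6 site has 2 copies of TGATAA end to end.

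A further set shows the range among the other sites. The sites upstream of fat-1 (chrIV:13314331-13314431, plus strand) and fat-2 (chrIV:13322619-13322719, plus strand) were strong and hold no TGATAA. The site beyond the 3' end of fat-6 (chrIV:11911714-11911814, minus strand) was weak and holds 2 copies of TGATAAG on opposite strands that point away from each other.
fat-1, upstream site: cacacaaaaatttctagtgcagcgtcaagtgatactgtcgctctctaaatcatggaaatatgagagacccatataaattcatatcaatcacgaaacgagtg
fat-2, upstream site: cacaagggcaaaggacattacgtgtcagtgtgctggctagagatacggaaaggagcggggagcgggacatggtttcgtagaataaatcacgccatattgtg
fat-6, site beyond the 3' end: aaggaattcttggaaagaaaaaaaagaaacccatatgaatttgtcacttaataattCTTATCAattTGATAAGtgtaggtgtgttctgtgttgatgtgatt
A match to these letters is a description of the sequence, and neither a match nor its absence shows how PQM-1 was held there.

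Every desaturase gene had PQM-1 peaks close by, and most of these stood away from the gene's outermost annotated 5' end. All 7 genes had an optimal summit in their window, against 47.3% of all protein-coding genes (9439 of 19973). All 7 had 2 or more, against 20.3% of all genes, and all 7 had a summit of the strongest 1000 optimal peaks, against 12.3%. The 7 genes lie at 5 places, because the windows of fat-3 and fat-4 and those of fat-1 and fat-2 overlap and share 6 summits, so the counts rest on 5 stretches of the genome and not on 7. Together the windows cover 73.0 kb and held 2.6 optimal summits per 10 kb, against 0.554 over the whole genome. The windows of all genes had a median of 0 optimal summits. Widening the windows to 10 kb on either side added 2 summits, with signals of 43.4 past fat-2 and 41.9 past fat-7.

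**Figure D1:**
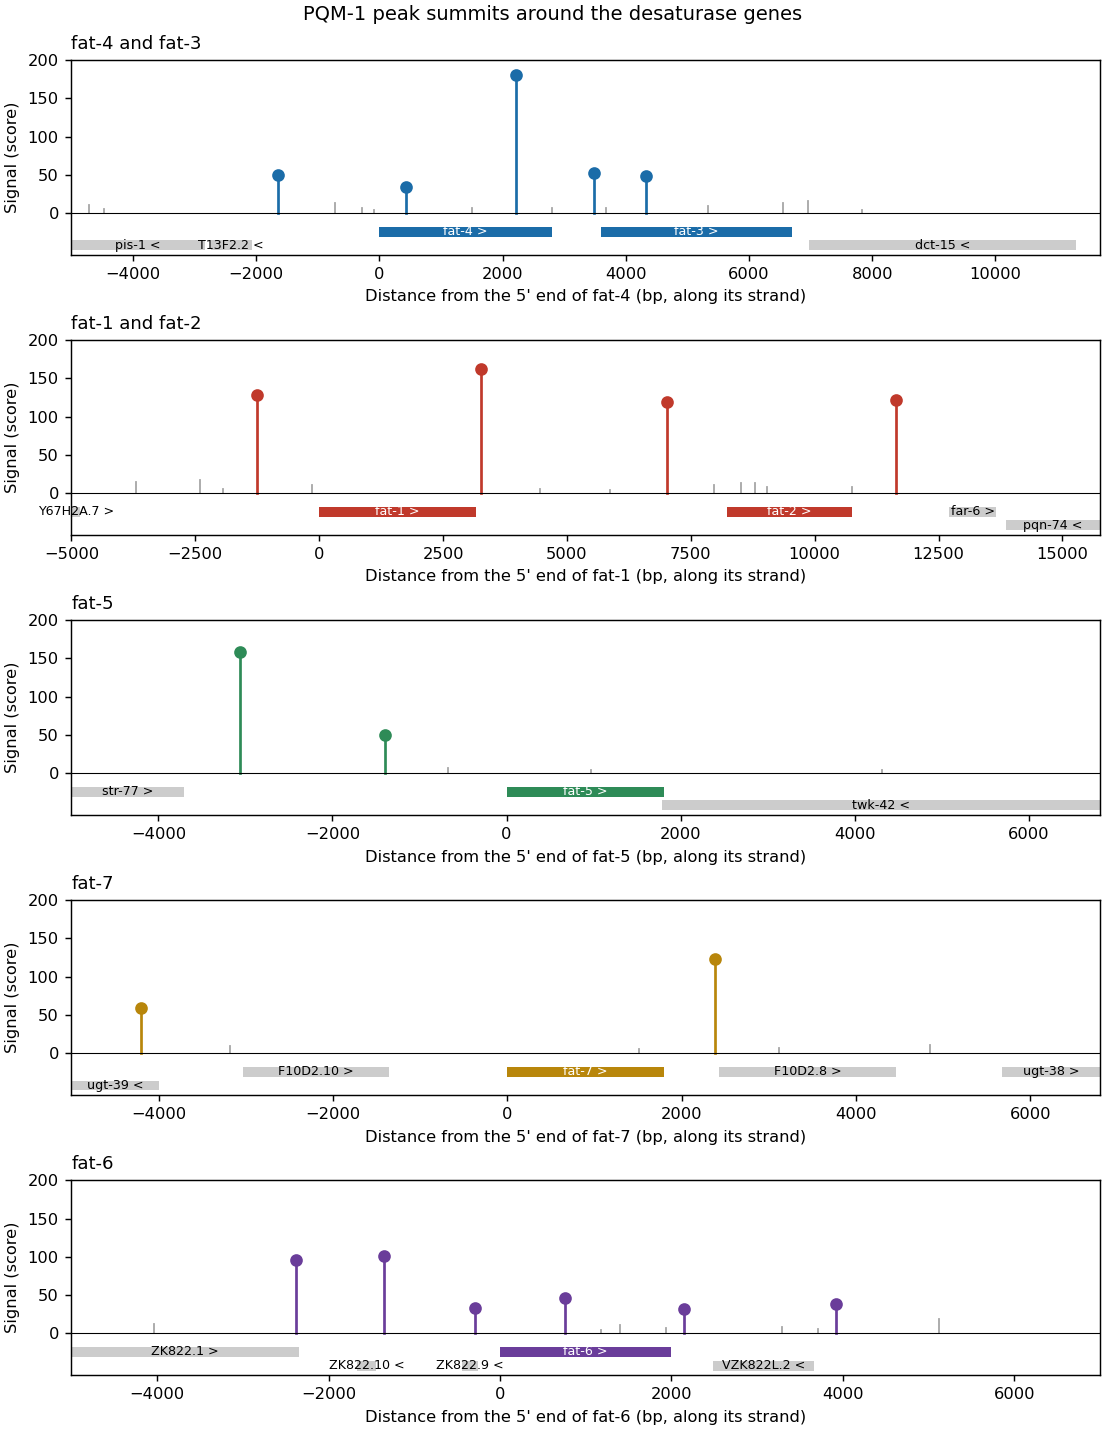
Positions of PQM-1 peak summits at the desaturase loci, with distance from the 5' end of the named gene in bp along its strand on the x axis and signal, a score of the pooled data, on the y axis. Large points are the 19 optimal peaks, short grey lines are weaker peaks of the pooled relaxed list, and boxes are genes with an arrow for their direction along the axis. The tallest point, at 180, stands inside fat-4, and the tall points of fat-1, fat-2, fat-5 and fat-7 stand away from the 5' ends.

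The palmitoyl-CoA desaturase gene fat-5 had its main peak far upstream. The gene (WBGene00001397) lies on the plus strand at chrV:17725004-17726818, with 3 exons. Its window held 2 optimal summits, both in the 3710 bp between it and str-77, a chemoreceptor gene. The farther one (chrV:17721823-17722081), 3068 bp upstream of fat-5, had a signal of 159 and ranked 84 of 5560. In replicate 1 it had a signal of 115 and rank 102, and in replicate 2 a signal of 43.2 and rank 98. The rank was thus close to the same in both, and both replicate summits fell within 4 bp of the pooled one. It lay 2989 bp from the 5' end of str-77, which is nearer than that of fat-5 but on the far side of the str-77 gene body. The nearer one (chrV:17723434-17723773), 1400 bp upstream, had a signal of 49.4, with rank 2577 in replicate 1 and rank 1825 in replicate 2. Replicate 1 had no other summit in the window.

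The stearoyl-CoA desaturase gene fat-6 had the most optimal summits of the family, and its strongest signal was the lowest of the family. The gene (WBGene00001398) lies on the minus strand at chrIV:11913692-11915687, with 5 exons, and ZK822.9 starts 259 bp upstream of it on the opposite strand. Its window held 6 optimal summits with signals from 32 to 101. The strongest (chrIV:11916987-11917071), 1356 bp upstream in intergenic sequence, had a signal of 75.3 and rank 503 in replicate 1, and 24.8 and rank 747 in replicate 2. It lay only 94 bp upstream of the 5' end of ZK822.10, so by distance it also falls in the promoter of that gene. The next (chrIV:11917998-11918089), 2384 bp upstream and in the 3' UTR of ZK822.1, had a pooled signal of 96.1 and ranked 655 in replicate 1 and 482 in replicate 2. Replicate 2 thus put this summit first among those of fat-6, and replicate 1 the other. A summit inside an intron (chrIV:11914756-11915095), 761 bp downstream of the 5' end, had a signal of 46.4. Its replicate ranks were far apart, 4383 in replicate 1 and 1142 in replicate 2. Each replicate had 2 peaks overlapping it, and these are the ranks of the stronger. That peak had its summit 117 bp from the pooled one in replicate 1 and 18 bp in replicate 2. The remaining optimal summits lay 290 bp upstream (33.3), 148 bp past the end of the gene (32) and 1928 bp past it (38.2). The one 148 bp past the end ranked 2889 in replicate 1 and 15632 in replicate 2, so in replicate 2 it stood among weak peaks.

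The other stearoyl-CoA desaturase gene, fat-7, had only 2 optimal summits, and both were closer to the 5' end of another gene. The gene (WBGene00001399) lies on the minus strand at chrV:7151353-7153146, with 5 exons. The stronger summit (chrV:7150681-7150872) lay 590 bp past its end and 49 bp upstream of the 5' end of F10D2.8, the next gene on the same strand. Its signal was 123, with 89 and rank 297 in replicate 1 and 34.3 and rank 254 in replicate 2. The ranks differed little, and the replicate summits lay 2 and 6 bp from the pooled one. The weaker summit (chrV:7157181-7157520, signal 58.9) lay 4205 bp upstream of fat-7, within ugt-39, a UDP-glucuronosyltransferase gene, 209 bp into it. No list, relaxed ones included, held a summit in the fat-7 promoter, which runs from 1000 bp before its 5' end to 250 bp after it.

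Of the next enzymes, FAT-2 and FAT-1, the genes are neighbours on the plus strand, and 4 strong summits surround them. fat-1 (WBGene00001393) lies at chrIV:13315644-13318811 and fat-2 (WBGene00001394) at chrIV:13323873-13326395, both with 3 exons and 5061 bp apart. Neither body held an optimal summit. The strongest (chrIV:13318748-13319032) lay 104 bp past the end of fat-1 and 4958 bp upstream of fat-2, with a signal of 162 and rank 76 of 5560. It had a signal of 114 and rank 112 in replicate 1, and 48.2 and rank 62 in replicate 2. Both replicates thus placed it near the top, although the replicate 2 summit was 87 bp away and fell just outside the fat-2 window. For that reason the strongest summit of fat-2 in replicate 2 is another one, with a signal of 19.6 and rank 1288.

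The remaining summits at this locus split the replicates. The summit 1263 bp upstream of fat-1 (chrIV:13314262-13314469, signal 128) ranked 322 in replicate 1 and 106 in replicate 2. The summit 1204 bp upstream of fat-2 (chrIV:13322546-13322705, signal 119) ranked 189 in replicate 1 and 1288 in replicate 2. The summit 885 bp past the end of fat-2 (chrIV:13327162-13327358, signal 122) ranked 185 in replicate 1 and 1543 in replicate 2. So the summits by fat-1 were among the strongest in both replicates, while those by fat-2 were so in replicate 1 and lower in replicate 2. The last one lay 1079 bp upstream of far-6, a gene for a fatty acid and retinol binding protein.

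The genes of the later steps, fat-4 and fat-3, also lie in tandem, 796 bp apart, and share the strongest summit of the family. fat-4 (WBGene00001396) lies at chrIV:9799429-9802226 with 8 exons and fat-3 (WBGene00001395) at chrIV:9803023-9806119 with 7 exons, both on the plus strand. The strongest summit (chrIV:9801516-9801778) had a signal of 180 and ranked 46 of 5560, in the top 0.827% of optimal peaks. It lay in an intron of fat-4, 2211 bp downstream of the 5' end of fat-4 and 1383 bp upstream of that of fat-3. Its signal was 145 with rank 39 in replicate 1, and 35.1 with rank 233 in replicate 2. It was the highest desaturase summit in replicate 1 but not in replicate 2, where 3 summits of fat-1 and fat-5 ranked above it.

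Both genes had further, weaker summits on each side. A summit 119 bp upstream of fat-3 (chrIV:9802734-9803073, signal 53) ranked 2956 in replicate 1 and 2398 in replicate 2. Another inside fat-3 (chrIV:9803580-9803919, signal 49), 727 bp from its 5' end, ranked 2547 in replicate 1 and 1260 in replicate 2. Upstream of fat-4, a summit at 1653 bp (chrIV:9797606-9797945, signal 49.7) lay nearer to T13F2.2, which starts 422 bp away on the opposite strand. The weakest one (chrIV:9799685-9800024, signal 34.7), in an intron of fat-4 at 426 bp, ranked 2511 in replicate 1 and 19089 in replicate 2. No other of the 19 summits differed by as many places between replicates.

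Ordered by the strongest pooled signal in the window, fat-3 and fat-4 came first with 180, then fat-1 and fat-2 with 162, fat-5 with 159, fat-7 with 123 and fat-6 with 101. Of all 19973 genes, 125 had a strongest signal at or above that of fat-3 and fat-4 (0.626%), 227 for fat-1 and fat-2 (1.14%) and 248 for fat-5 (1.24%). For fat-7 the number was 664 (3.32%) and for fat-6 it was 1234 (6.18%). Among genes with any optimal summit in the window, the median was 51.3. The first places differed between replicates. Replicate 1 ranked the fat-4 and fat-3 summit 39, that of fat-5 102 and that of fat-1 and fat-2 112, while replicate 2 ranked the fat-1 summit 62, that of fat-5 98 and that of fat-4 and fat-3 233. In both, fat-7 came next and fat-6 last, with ranks 297 and 503 in replicate 1 and 254 and 482 in replicate 2, counting the fat-1 and fat-2 summit once. With 2 replicates the order among fat-3 and fat-4, fat-1 and fat-2, and fat-5 is within their spread. In replicate 2 the summit of fat-7, at rank 254, was also close to that of fat-4 and fat-3, at rank 233.

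**Figure D2:**
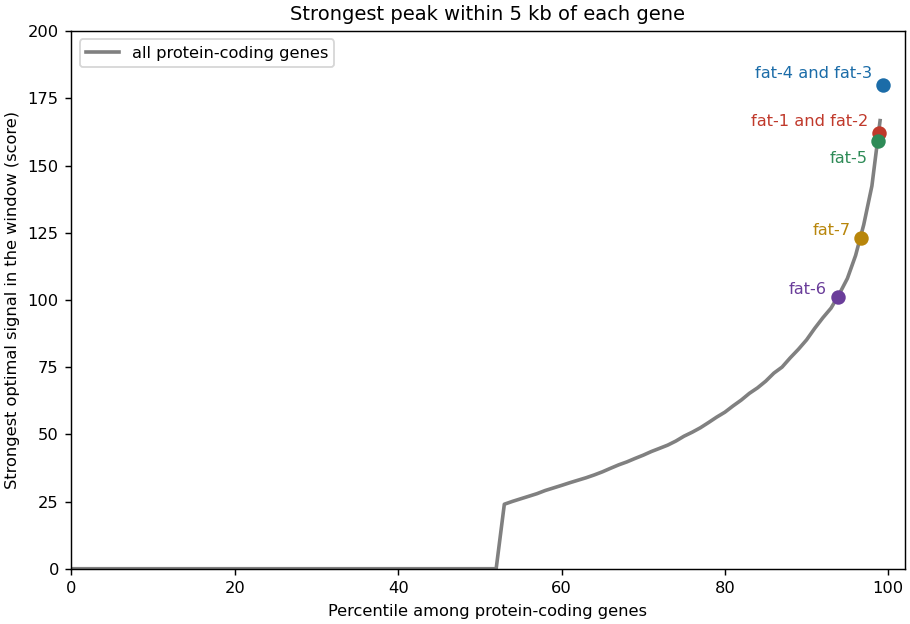
The strongest optimal signal (score) within each gene and 5 kb on either side, on the y axis, against its percentile among all 19973 protein-coding genes, on the x axis. The grey line is all genes and sits at 0 for those with no optimal summit; the points are the desaturases, from 101 at fat-6 to 180 at fat-4 and fat-3.

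Summits at the gene's own promoter, with the limits given above for fat-7, were then counted. Taken from each gene's outermost annotated 5' end, fat-3 and fat-6 had an optimal summit there, 2 of 7 genes (28.6%), against 16.3% of all genes. Neither of these summits was among the strongest. The fat-3 summit had a signal of 53 and rank 2052, and the fat-6 summit 33.3 and rank 3942, against a median signal of 43.6 over the optimal list and a lowest of 23.8. The fat-6 promoter summit was also 30 bp inside ZK822.9, ranked 2410 in replicate 1 and 5554 in replicate 2, and the replicate summits lay 113 and 301 bp from it. With the 5' ends of all annotated transcripts, 3 of 7 genes had a promoter summit, since fat-4 gained the 2 summits in its introns. One of them is the strongest of the family, with a signal of 180. The share of all genes under that rule was not computed. With the pooled relaxed list, the promoters of fat-1, fat-2, fat-4 and fat-5 held summits with signals of 10.2, 11.4, 13.9 and 7.15. These lie under the lowest optimal value by construction, because the optimal list is the strongest 5560 peaks of the pooled list.

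A summit somewhat farther upstream was common to the family. A band from 1000 to 2000 bp upstream of the 5' end, chosen after the distances were seen, held an optimal summit for 6 of 7 genes (85.7%), against 6.5% of all genes. The distances were 1204 bp for fat-2, 1263 bp for fat-1, 1356 bp for fat-6, 1383 bp for fat-3, 1400 bp for fat-5 and 1653 bp for fat-4. Only fat-7 had none. The signals in the band ran from 49.4 at fat-5 to 180 at fat-3, and those of fat-1, fat-2, fat-3 and fat-6 were among the strongest 1000. Because the band was drawn around these distances, its count describes the layout and is not evidence for it. The one of fat-3 lies inside fat-4, and those of fat-6 and fat-4 lie closer to the 5' ends of ZK822.10 and T13F2.2.

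By place, 12 of the 19 summits were intergenic, 4 lay in introns of fat-3, fat-4 or fat-6 and 3 lay in other genes. The intron summits of fat-3 and fat-4 also lay within promoter range of the 5' end of another annotated transcript of the same gene. Shares over all optimal peaks were not computed for these places. The nearest 5' end was that of a desaturase for 9 summits and of another gene for 10. The free stretch upstream differs between the members, from 259 bp before fat-6 to 5061 bp before fat-2, against a median of 1156 bp over all genes. Counting only summits whose nearest 5' end is the gene's own leaves 6 of 7 genes, without fat-7. The share of all genes under that rule was not computed, so the count is not read as particular to the family.

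Both replicates had a peak at each of the 19 places, in a list that the authors had already filtered on agreement between them. All 19 optimal peaks overlapped a peak of each replicate's relaxed list by at least 1 bp, against 93.4% of all optimal peaks. A summit of each replicate lay within 100 bp for 16 of the 19, and the widest offset was 301 bp, at the fat-6 promoter summit in replicate 2. The share of all optimal peaks with summits that close was not computed. Of the 19, 17 overlapped one of the strongest 5560 in both replicates, against 3605 of all 5560 (64.8%). The exceptions were the intron summit 426 bp into fat-4 and the summit 148 bp past fat-6, which missed in replicate 2. The summits of replicate 1 lay a median of 2 bp from the optimal ones in the windows, against 6 bp over all optimal peaks, and those of replicate 2 lay 33 bp away, against 25 bp. Of the 19, 9 ranked higher in replicate 1 and 10 in replicate 2. Many of the 19 were strong. Of them, 9 were among the strongest 1000, against 18.0% of all optimal peaks, and the 19 had a median signal of 58.9, against 43.6.

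**Figure D3:**
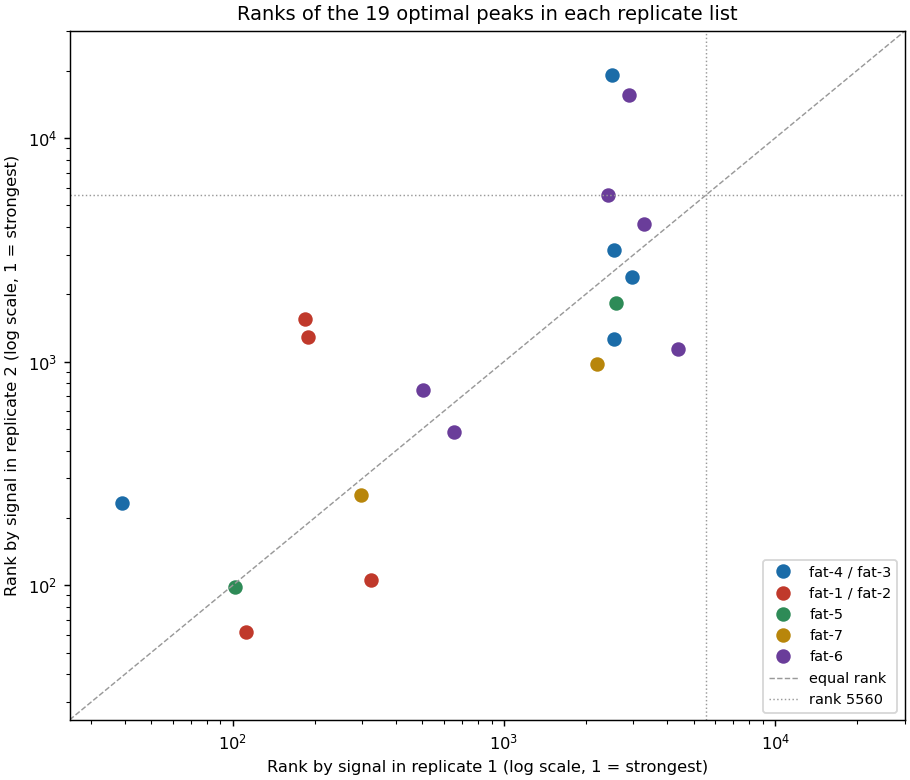
Rank of each of the 19 optimal peaks by signal in replicate 1 (x axis) and replicate 2 (y axis), both on log scales with 1 the strongest, coloured by locus. Points on the dashed line have equal ranks, and the dotted lines mark rank 5560; 2 points lie above that line in replicate 2, at 15632 and 19089.

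Copies of TGATAAG were present at some sites of the family and absent from others. Motifs were searched on both strands within 50 bp of each summit. TGATAAG was at 6 of 19 peaks (31.6%), against 23.9% of all optimal peaks, and the shorter TGATAA, whose count takes in every TGATAAG site, at 10 (52.6%), against 43.3%. AGATAA, another GATA form, was at 4 (21.1%), against 11.9%. The peaks past the ends of fat-2 and fat-7 hold both AGATAA and TGATAA and are in both counts. GTAAACA, the site of DAF-16, was at 0 of 19, against 3.11%. With 19 peaks, each of these counts is within 2 peaks of what the share over all optimal peaks would give.

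The sites with TGATAAG were spread over 4 loci and over strong and weak peaks. At fat-5, the copy in the peak of rank 84 lay 4 bp from the summit. In the fat-4 intron, 426 bp from the 5' end, the copy lay 1 bp from the pooled summit. The overlapping peak of replicate 2, at rank 19089, had its summit 122 bp from the pooled one. The fat-1 and fat-2 locus had no copy near an optimal summit, although its 4 peaks ranked from 76 to 281. At fat-6, 2 summits had a pair of copies each, the site beyond the 3' end printed above and the one in ZK822.1. Of 24 copies of TGATAAG in all windows together, 9 (37.5%) lay within 50 bp of an optimal summit, against 8.06% of 18686 copies in the genome. The windows also hold more summits for a copy to lie near, 2.6 per 10 kb against 0.554, so the shares do not show that copies in the windows were occupied more often than that density gives. No desaturase had TGATAAG in the 300 bases from 250 before to 50 after its 5' end, 0 of 7, against 9.19% of all such promoters. For 7 promoters, a count of 0 is close to what that share would give.

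Genes that regulate the desaturases or work beside them had PQM-1 summits at the promoter in 4 of the 5 lists examined. In 5 lists of 31 genes, 14 (45.2%) had an optimal promoter summit, against 16.3% of all genes. In the wider window, 24 of the 31 had an optimal summit, against 47.3% of all genes. These lists were chosen with earlier results of these data known, so the counts are a description. Among regulators of the desaturases and of membrane fluidity, 5 of 11 had an optimal promoter summit. nhr-80, a nuclear hormone receptor gene needed for desaturase expression, had the strongest, 5 bp downstream of its 5' end, with a pooled signal of 85.5 (60.7 in replicate 1 and 22.6 in replicate 2). nhr-49, its partner in the control of fat genes, had a signal of 71.9 (46.7 in replicate 1 and 24.7 in replicate 2), 404 bp upstream. sbp-1, the worm's sterol regulatory element-binding protein gene, had 40.4 at 144 bp upstream, and its site holds 2 copies of TGATAAG. acdh-11, an acyl-CoA dehydrogenase gene linked with fat-7 expression, had 31.7, and paqr-2, an adiponectin receptor-like gene that acts in membrane fluidity, had 28.7.

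The enzymes that work beside the desaturases were mixed. Of 12 genes of fatty acid elongation, 6 had a promoter summit. The strongest was that of elo-2, a fatty acid elongase gene that acts on palmitic acid, with a signal of 119 and rank 285, 156 bp upstream. It had 89.2 in replicate 1 and 28.4 in replicate 2. elo-9 followed with 83.8 and elo-1, which elongates polyunsaturated fatty acids, with 77.5. Of 4 electron donor genes, only cytb-5.1, a cytochrome b5 gene, had one, with 61.4. Neither gene of fatty acid synthesis, pod-2 for acetyl-CoA carboxylase and fasn-1 for fatty acid synthase, had one, while the window of pod-2 held 5 optimal summits. Both sphingolipid desaturase genes had one, with 78.6 at ttm-5 and 33 at F33D4.4.

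**Figure D4:**
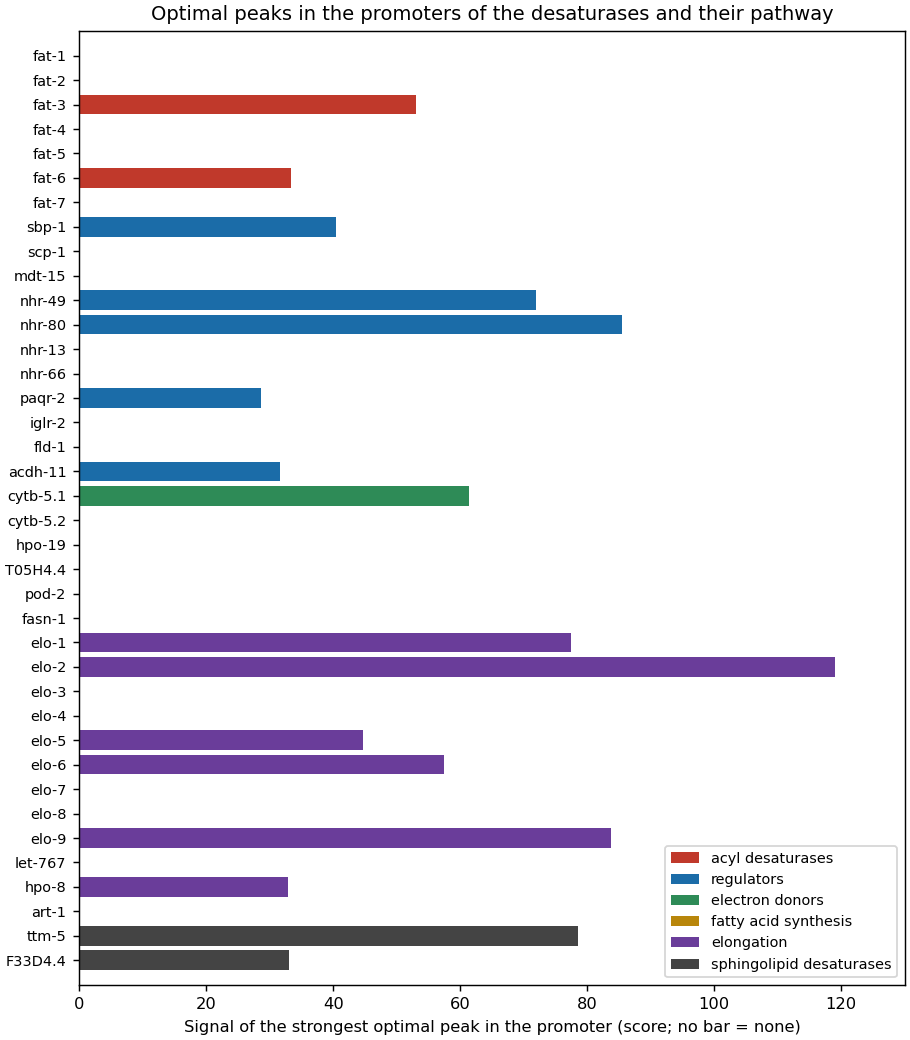
Signal (score) of the strongest optimal peak in the promoter of each desaturase and pathway gene, with bars starting at 0 and no bar where there was none. Of the desaturases only fat-3 (53) and fat-6 (33.3) have a bar, and the longest is that of elo-2 at 119.

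Shared sequence among the desaturases was checked, since reads from near-identical copies can be placed on either. The coding sequences of fat-6 and fat-7 were 84.6% identical (857 of 1013 aligned bases), and the other pairs lay between 59.8% for fat-1 and fat-5 and 67.2% for fat-5 and fat-6. Within the 19 optimal peaks, every stretch of 36 bases occurred once in the genome, and within the gene bodies between 99.1% (fat-7) and 100% did. At that length the peaks therefore hold no sequence that another place in the genome shares exactly, while the sources used here do not give the read length.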

How the data were processed

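PQM-1 was immunoprecipitated from 2 biological replicates of whole larvae, and library fragments ran from 150 to 350 bp, as the labels state. Per the text files deposited with the data, the authors made a relaxed ce11 list for each replicate, a pooled one, and an optimal list filtered on irreproducible discovery. The sources used here do not give the aligner, the peak caller or the threshold. The signal is a score deposited by the authors with no stated scale, never compared between lists, and the summit position is also as deposited. The optimal list equals the strongest 5560 peaks of the pooled list. The ce10 lists and the q values were not used.

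Summits were assigned with the Ensembl 115 annotation of WBcel235 in Python 3.11.15 with numpy 2.4.6, Biopython 1.88 and matplotlib 3.10.9. The overlap and motif code was checked on planted summits and motifs. Members, lists and rules were chosen with earlier results of these data known. Named genes are the members, the genes nearest to or holding their optimal summits, and up to 3 bound genes per pathway list, or all where 5 or fewer are bound. pod-2 and fasn-1 were named after their values were seen. No test was run, because there was 1 group. Counts of window, promoter and band summits, replicate overlaps and motifs stand beside their shares over all genes or peaks. No such share was computed for counts by place, nearest 5' end, distance between summits or alternative settings. Alternatives were other windows, promoters, overlaps and motif distances, shorter lists and each replicate alone.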

Additional observations from a re-analysis of the deposited data

How the results depend on the processing

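Of 61 alternative values, 51 were classed as the same as the reported value and 10 as moved. A count was classed as the same within 1.5 times the reported count, and a strongest signal only when unchanged. Counts and signals have no direction, so whether a result would reverse was not tested. All 7 genes kept a window summit in each list tried, and 6 of 7 when summits went to the nearest 5' end. The 19 window summits became 9 among the strongest 1000 peaks and 9 when only the nearest 5' end counted. The promoter count of 2 became 6 with 2000 bp upstream and 500 bp downstream, 1 among the strongest 2780 peaks and 0 among the strongest 1000. It became 3 with the 5' ends of all transcripts. The shares of all genes under these settings were not computed. The pathway count of 14 became 9 among the strongest 2780 and 5 among the strongest 1000. TGATAAG at 6 summits became 10 with TGATAA. With 2 kb on either side, the strongest signal became 122 for fat-2 and 49.4 for fat-5. Without replicate 1 or without replicate 2, which takes the strongest 5560 peaks of the other, window genes stayed at 7, window summits were 21 and 19, promoter genes 3 and 2 (fat-4 was added without replicate 1) and pathway genes 16 and 15. Genes with a summit in the band from 1000 to 2000 bp upstream stayed at 6, those with 2 or more summits at 7, and those with a summit of the strongest 1000 were 6 and 7. No paired analysis was possible because the design holds 1 group and no result comes from a test. Depth is unknown, so how it limits these lists was not tested.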

Other observations

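Outside the windows' comparisons, the heptamer ACTGTCG was seen in the printed sequences of the sites upstream of fat-1 and past the end of fat-1. It was chosen after the sequences were read, so it has no test. On either strand it was within 50 bp of 3 of the 19 desaturase summits, the third in an intron of fat-6, and of 37 of all 5560 optimal summits (0.665%).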
